A study of Homo sapiens with 4 samples.

Results

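The 10 immediate early and AP-1 genes FOS, FOSL1, FOSL2, JUN, JUNB, JUND, EGR1, ATF3, IER2 and MYC were examined in chromatin immunoprecipitation sequencing (ChIP-seq) data from MCF10A, an immortalised, non-tumour human breast epithelial cell line that is known to carry a gain around MYC. A region belonged to a gene when it overlapped the gene's hg19 span widened by 5 kb on each side. By that rule the genes held 29 of 11604 regions enriched for 53BP1, 13 of 62530 regions enriched for the serine 5-phosphorylated form (S5p) of RNA polymerase II, hereafter Pol II, and 15 of 54600 regions enriched for its serine 2-phosphorylated form (S2p). The study comprised 4 libraries of cells in normal growth conditions, 1 for each of these 3 ChIPs and 1 of input DNA, which is not used here. With 1 library per ChIP there was no spread between replicates, so every value below is a description without a test, and no order between genes could be set against an error. The labelled cell type was not checked against marker genes, since no hg19 annotation was used.

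AP-1 is a dimer of a FOS-family and a JUN-family protein, or of JUN proteins with each other, and it binds DNA through a basic leucine zipper. Most of these genes are short and are known to be switched on within minutes of growth factor or stress signals, through serum response factor and CREB/ATF proteins that already sit at their promoters. S5p is the form of Pol II that is abundant near transcription starts, and S2p accumulates on elongating Pol II towards the ends of genes. 53BP1 is a chromatin protein of DNA double-strand break repair that also binds p53, and the series was titled for its part in transcription by the p53 family.

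All 10 genes held both 53BP1 and S5p regions, and S2p regions were found at 9, the exception being ATF3. Regions were ranked within a list by the authors' fold enrichment over background. By that value the strongest region of most genes stood high in its list; the lowest were the strongest S2p region of JUND, at percentile 54.3, and the strongest 53BP1 region of FOSL2, at percentile 69.2. The strongest S5p region was among the strongest 1% of the S5p list at 6 genes (FOS, FOSL1, JUN, JUNB, IER2 and MYC), and its median rank over the 10 genes was 303.5. The strongest S2p region was among the strongest 1% at 5 genes (FOSL1, JUN, JUNB, IER2 and MYC). The strongest 53BP1 region was among the strongest 5% of its list at 7 genes and among the strongest 1% at JUNB. Its median fold was 17.8, against a median of 6.02 over the whole 53BP1 list. These are unlike measures, since the first takes only the strongest region of a gene and the second every region. A closer measure is the strongest 53BP1 fold, where present, in 1000 S5p regions near the gene in S5p rank. Its median ran from 5.32 for JUND to 11.7 for FOS. FOS and FOSL2 were below their median and the other genes above theirs. FOS, FOSL2 and ATF3 were the genes outside that strongest 5%. Read depth was unknown, so only ranks are set side by side between lists, and a region that is missing from a list was not detected rather than shown to be absent.

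**Figure D1:**
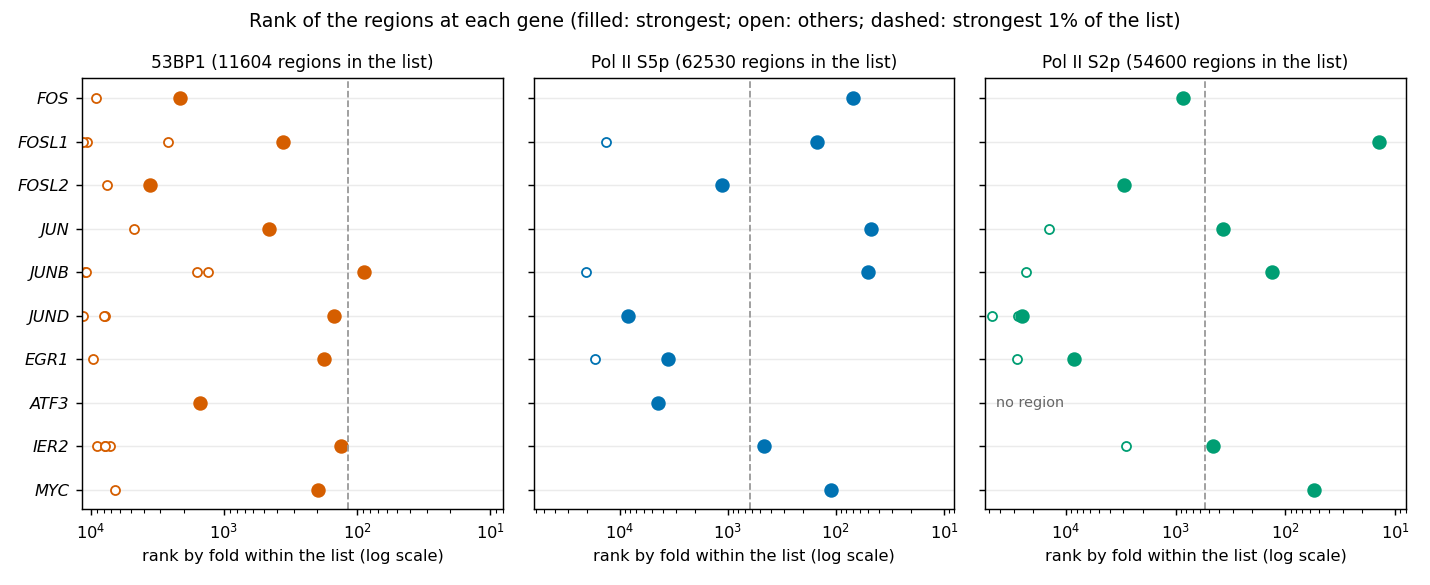
Rank by fold within the 53BP1, S5p and S2p lists (log scale, strongest to the right) of every region at each of the 10 genes. Filled points are the strongest region of a gene, open points its other regions, and the dashed line bounds the strongest 1% of the list. JUND, EGR1 and ATF3 have the lowest S5p ranks, ATF3 has no S2p region, and FOS, FOSL2 and ATF3 have the lowest 53BP1 ranks.

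Promoters of the genes are known for binding sites of the factors that respond to signals, and S5p and 53BP1 summits lay near the starts of most of them. RefSeq promoter windows (GRCh38.p14) were used for 8 of the 10 genes, and none was used for FOSL1 and MYC. Motifs were searched on both strands in the 250 bases before the RefSeq start, and capitals mark the CArG box of serum response factor, the cyclic AMP response element TGACGTCA, its variant TGACATCA and the AP-1 element TGACTCA, whose reverse complement is TGAGTCA. These promoters are shown because EGR1 and JUN had S5p and 53BP1 summits close to the start, JUND combined a high 53BP1 rank with a low S5p rank, and the first of 2 listed ATF3 promoters precedes the 5′ end of the gene, where no region lay. The windows lie at chr5:138465229-138465478 on the plus strand for EGR1, chr1:58784048-58784297 on the minus strand for JUN, chr19:18281623-18281872 on the minus strand for JUND and chr1:212565157-212565406 on the plus strand for ATF3, all in GRCh38.p14. Regions are in hg19 and positions were not converted.
EGR1: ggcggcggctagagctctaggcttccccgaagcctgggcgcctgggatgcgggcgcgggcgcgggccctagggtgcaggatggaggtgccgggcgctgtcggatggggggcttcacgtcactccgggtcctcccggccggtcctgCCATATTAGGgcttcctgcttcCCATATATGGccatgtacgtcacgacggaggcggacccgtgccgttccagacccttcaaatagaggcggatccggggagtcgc
JUN: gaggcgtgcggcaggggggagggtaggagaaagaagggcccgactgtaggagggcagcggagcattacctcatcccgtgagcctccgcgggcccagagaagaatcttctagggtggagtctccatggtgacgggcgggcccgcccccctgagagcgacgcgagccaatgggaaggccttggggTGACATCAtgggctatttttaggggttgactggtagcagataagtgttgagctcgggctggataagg
JUND: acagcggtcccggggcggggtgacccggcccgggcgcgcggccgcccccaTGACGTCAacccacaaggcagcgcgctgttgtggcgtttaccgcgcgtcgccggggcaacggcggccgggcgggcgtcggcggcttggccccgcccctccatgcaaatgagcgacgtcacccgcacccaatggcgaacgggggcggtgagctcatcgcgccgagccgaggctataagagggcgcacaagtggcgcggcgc
ATF3: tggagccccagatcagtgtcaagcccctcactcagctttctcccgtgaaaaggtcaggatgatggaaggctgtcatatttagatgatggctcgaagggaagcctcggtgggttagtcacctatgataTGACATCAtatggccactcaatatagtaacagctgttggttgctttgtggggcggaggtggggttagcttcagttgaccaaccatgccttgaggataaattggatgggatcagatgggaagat

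Among the 8 genes whose RefSeq windows were used, the CArG box was found at EGR1, in the copies CCATATTAGG and CCATATATGG. It was found in 1.16% of all 35116 promoter windows. TGACGTCA was found at JUND and in 1.65% of all windows, and TGACATCA at JUN and ATF3 and in 2.37%. TGACTCA or its reverse complement was found at none of the 8 genes and in 4.2% of all windows. Neither GCGGGGGCG, a site of EGR proteins (4.72% of windows), nor the E-box CACGTG (6.34%) was found at any of the 8. TATAAA was found at FOS, JUNB and ATF3 (10.7% of windows), at ATF3 in the other listed window, which is not shown, and GGGCGG, a site of SP1, at 6 of the 8 genes (42.6%). A match is a run of letters and not a measured site, and a missing match says only that the letters are not in this window.

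In the FOS family, Pol II was dense at FOS and FOSL1, while FOSL2 was covered by the longest regions. FOS, the founding partner of JUN in AP-1, held 1 S5p region (chromosome 14, 75743823 to 75750993) of fold 153, ranked 69th of 62530. Its S2p region, at 75745215 to 75751158, had a fold of 33.1 and ranked 859th of 54600. Its stronger 53BP1 region, at 75745262 to 75745867, had a fold of 9.16 and ranked 2130th of 11604. Thus the gene stood higher in the S5p list than in the S2p or 53BP1 list.

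FOSL1 encodes FRA1, a FOS protein without the transactivation domain of FOS that is known for its role in invasive epithelial cells. It held the strongest S2p region of the set, at 65645587 to 65668386 on chromosome 11, with a fold of 159 and rank 14. Its strongest S5p region, at 65654324 to 65668615, had a fold of 123 and rank 148, and the strongest of its 4 53BP1 regions, at 65667427 to 65668094, a fold of 15.8 and rank 360. Its S2p region reached 14105 bp past the end of the span. In RefSeq order the next gene past that end is CCDC85B, so at this locus signal of both genes cannot be told apart there.

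FOSL2 encodes FRA2, a relative of FRA1. Its S5p region, at 28612456 to 28646777 on chromosome 2, was 34322 bp wide, had a fold of 59.2 and ranked 1134th. Its S2p region, at 28613404 to 28649201, was 35798 bp wide, with a fold of 14.6 and rank 2929. The stronger of 2 53BP1 regions had a fold of 7.58 and rank 3571, the lowest strongest 53BP1 rank of the 10 genes. It was also the widest 53BP1 region of the set, at 3095 bp, and lay at 28613852 to 28616946 across the start.

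In the JUN family, JUN and JUNB resembled FOS in Pol II, and JUND did not. JUN, the main AP-1 partner of FOS, held the highest S5p rank of the 10 genes by fold, slightly above JUNB; by −log10 q-value it ranked 148th, behind JUNB, MYC, IER2 and FOS. Its S5p region (chromosome 1, 59244169 to 59252191) had a fold of 167 and ranked 47th. Its S2p region at 59243507 to 59251475 had a fold of 52.0 and ranked 368th, and its stronger 53BP1 region at 59249308 to 59250842 a fold of 14.7 and rank 459.

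JUNB, a weaker activator than JUN that can dampen its activity, held the strongest 53BP1 region of the set, at 12902013 to 12902698 on chromosome 19, with a fold of 25.9 and rank 88. The S5p region around it, at 12899383 to 12912994, had a fold of 165 and rank 51, and the S2p region at 12901949 to 12910527 a fold of 78.2 and rank 133. By fold, JUNB stood among the strongest 1% in all 3 lists, as no other of the 10 genes did; by −log10 q-value IER2 did so too. Its 5 53BP1 regions included further regions of fold 10.7 and 10.2, which exceeded the strongest 53BP1 region of FOS and of FOSL2. HOOK2 overlaps JUNB in RefSeq, so the regions cannot be ascribed to JUNB alone.

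JUND, which unlike the other JUN genes is known to be expressed in resting cells too, had a strong 53BP1 region on Pol II that was weaker than at the other 9 genes for S5p, though still in the strongest 20% of the S5p list. The 53BP1 region at 18391910 to 18393184 on chromosome 19 had a fold of 21.9 and ranked 148th. The S5p region around it, at 18384911 to 18393763, had a fold of 16.5 and ranked 8350th, the lowest strongest S5p rank of the set. The strongest of 3 S2p regions, at 18384359 to 18390621, had a fold of 3.73 and ranked 24964th by fold, but 8431st by −log10 q-value. The S2p region at the start had a fold of 3.58, so the order of these S2p regions rests on a small difference.

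EGR1 and ATF3 were likewise lower in Pol II than FOS, JUN and JUNB. EGR1 encodes a zinc finger factor that is a classical target of serum response factor. Its S5p signal was divided between a region at the start, at 137799146 to 137802940 on chromosome 5 (fold 35.8, rank 3609), and a region at the end, at 137804016 to 137806871 (fold 5.94, rank 16751). S2p showed the same division, with the order reversed: the region at the end, at 137804560 to 137807046, had a fold of 6.93 and rank 8410, and the region at the start a fold of 3.52 and rank 27958. The 53BP1 region at the start, at 137799509 to 137801782, was strong, with a fold of 20.6 and rank 176.

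ATF3, a stress-induced member of the CREB/ATF family that can pair with JUN proteins, was the most compact of the set. Its long span is known to contain alternative promoters, and no region of any list lay at the 5′ end of the span. The S5p region, spanning 212781500 to 212782601 of chromosome 1, was 1102 bp wide, with a fold of 31.6 and rank 4386. Its summit lay 43463 bp downstream of the 5′ end. The only 53BP1 region, at 212781895 to 212782405, had a fold of 10.3, rank 1510 and a summit 3 bp from that of S5p. The nearest S2p region lay 97770 bp past the end of the span.

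IER2, which encodes a short-lived nuclear protein of growth factor responses, held 5 53BP1 regions, as many as JUNB. The strongest, at 13261724 to 13264324 on chromosome 19, had a fold of 23.3 and rank 132. The S5p region at 13260433 to 13268167 had a fold of 80.9 and rank 459, and the S2p region at 13261159 to 13268145 a fold of 47.2 and rank 453. The S5p and 53BP1 summits lay 2622 and 2627 bp inside the span, not at its 5′ end. A further S2p region, of fold 15.1, belonged to the gene by the rule but reached only 58 bp into the window, and the next gene before the start in RefSeq order is STX10.

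MYC encodes a basic helix-loop-helix factor that drives growth and is induced by the same signals. It was high in every list. Its S2p region, at 128746391 to 128756973 on chromosome 8, had a fold of 112 and ranked 55th, second to FOSL1 among the 10 genes. The S5p region at 128746057 to 128756670 had a fold of 134 and rank 112, and the stronger 53BP1 region at 128746545 to 128748966 a fold of 19.8 and rank 195. Copy number was not analysed here.

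Along the genes, the forms of Pol II peaked at opposite ends. The summit of the strongest S5p region lay within 250 bp of the 5′ end of the span at 8 of 10 genes, from a position of -70 bp (JUND, upstream of it) to 211 bp (MYC, downstream). IER2 and ATF3 were the exceptions described above. The summit of the strongest S2p region lay past the 3′ end at 9 of 9 genes, by 126 bp at JUND, 408 bp at JUNB, 717 bp at IER2, 748 bp at FOS, 794 bp at EGR1, 847 bp at JUN, 1070 bp at FOSL1, 1721 bp at MYC and 5372 bp at FOSL2. The median was 794 bp past the end. At FOSL1 the signal there cannot be told apart from that of CCDC85B. At JUNB it cannot be ascribed to JUNB alone, since HOOK2 overlaps it and PRDX2 is the next gene past its end in RefSeq order. At JUND a second S2p region of nearly equal fold had its summit at -1217 bp, upstream of the start. S5p and S2p summits of a gene were therefore far apart, with a median distance of 4108 bp. The same comparison over all genes could not be made without an hg19 annotation, so it is not shown that this arrangement is particular to these genes. The end of a gene depends on its annotation. With the RefSeq gene length counted from the 5′ end of the span, the S2p summit was past the end at 8 of 9 genes. MYC was the exception, with a RefSeq length of 7518 bp against a span of 5366 bp. RefSeq positions were not converted to hg19, so part of that length may lie before the start of the span. Whether the MYC summit lies past the RefSeq end is therefore not settled.

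**Figure D2:**
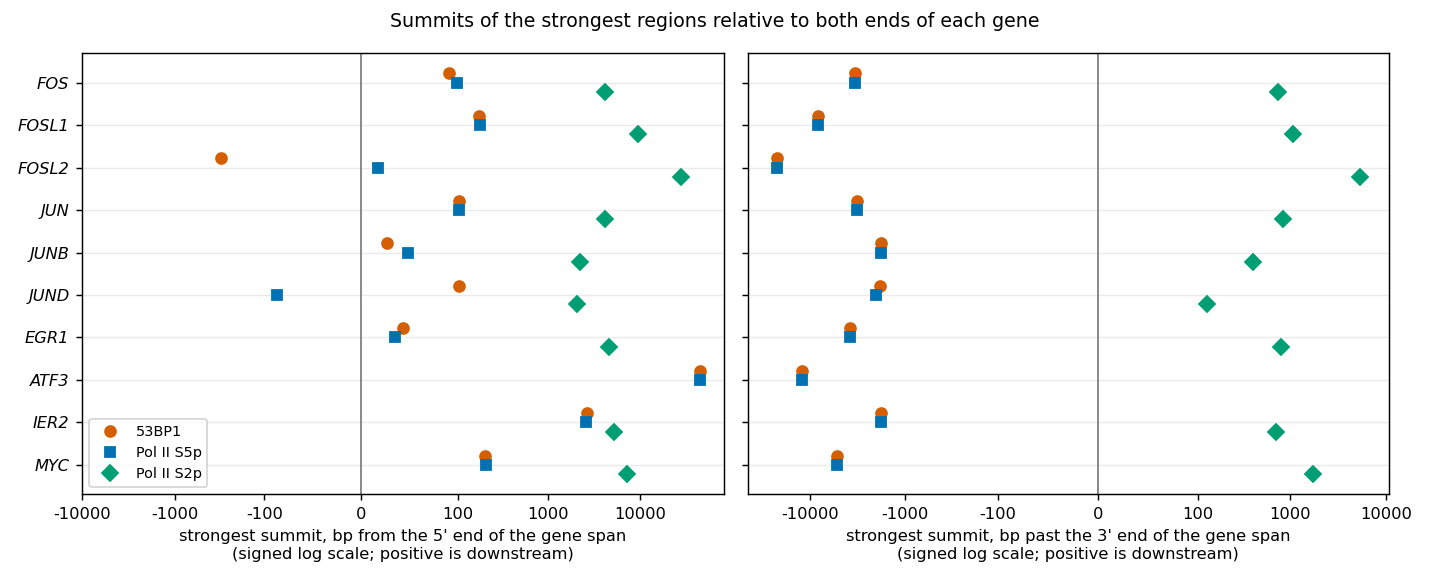
Position of the strongest 53BP1, S5p and S2p summit of each gene, in bp from the 5′ end (left) and past the 3′ end (right) of the gene span, on a signed log scale on which positive values are downstream. Every S2p summit lies right of the 3′ end, between 126 and 5372 bp past it, while 53BP1 and S5p summits lie together upstream.

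The regions themselves spanned the transcription units. S5p regions covered 100% of the span at 8 genes, 71.9% at EGR1 and 1.99% at ATF3. S2p regions covered 100% at 7 genes, 21.8% at EGR1, 6.21% at JUND and none of ATF3. 53BP1 regions were patchier, covering a median of 13.3% of the span, with the highest shares at IER2 (71.8%), JUND (51.8%) and JUNB (50.8%).

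**Figure D3:**
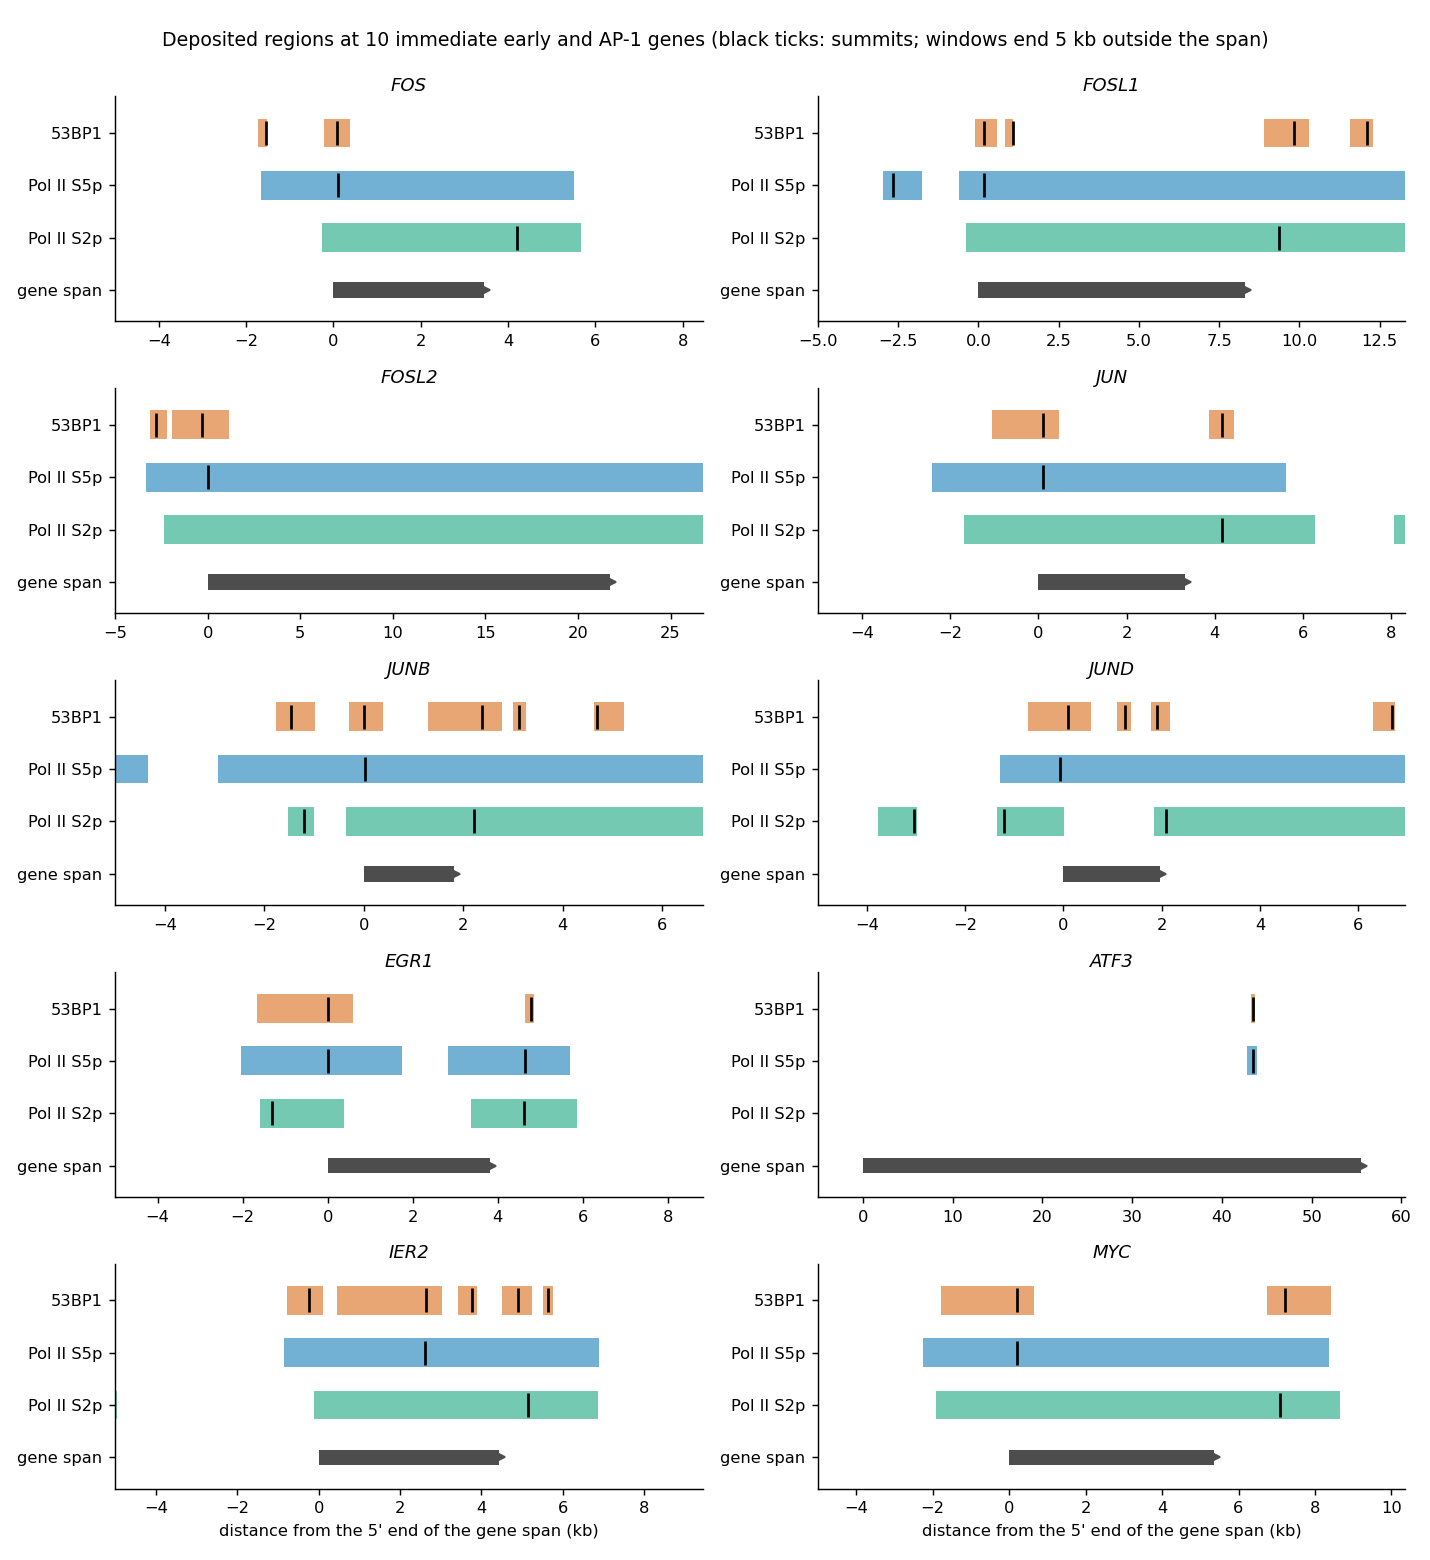
Regions of the 53BP1, S5p and S2p lists at each gene, drawn to scale against the distance from the 5′ end of the gene span (kb, transcription to the right), with black ticks at the summits. Bars are cut where they leave the window of 5 kb around the span; the FOSL2 S2p summit lies just outside it. 53BP1 forms short blocks at the start and often past the end; S5p covers the whole span at 8 genes and S2p at 7, with EGR1 and ATF3 covered in part or not at all by both and JUND only in part by S2p.

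The strongest 53BP1 summit coincided with the S5p summit. The distance was 1 bp at JUN, 3 bp at ATF3, 5 bp at FOSL1, EGR1 and IER2, 8 bp at MYC, 13 bp at JUNB and 19 bp at FOS, with 172 bp at JUND and 318 bp at FOSL2. It was thus within 20 bp at 8 of 10 genes, a limit chosen after the distances were seen, and at all 6 genes whose S5p region was among the strongest 1%. Over all S5p regions with 53BP1 the strongest 53BP1 summit was within 20 bp in 26.9%, and in the strongest 1% of S5p regions in 54.1%. The median distance was 6.5 bp for the 10 genes, 17 bp for the strongest 1% of S5p regions and 57 bp for all S5p regions with 53BP1. From the strongest 53BP1 summit to the strongest S2p summit the median distance was 4127 bp at the 9 genes with S2p.

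All 29 53BP1 regions at the genes met an S5p region, against 97.6% of the 53BP1 list, and 26 met an S2p region, against 78.9%. Of the 13 S5p regions, 11 held 53BP1 (84.6%, exact Clopper-Pearson 95% interval 54.6 to 98.1, covering counting error only). Over the S5p list the share was 15.2%, and over the strongest 20% of it, which contained the strongest S5p region of all 10 genes, 71.4%. All 625 S5p regions of the strongest 1% held 53BP1, and that of 6 genes was among them. For the 1000 S5p regions nearest in S5p rank, the share was 60.4% at JUND, 94.4% at ATF3, 96.1% at EGR1 and 99.4% at FOSL2. The 13 also include weaker S5p regions of FOSL1, JUNB and EGR1, at percentiles 78.7, 66.9 and 73.2. The strongest S5p region of a gene met S2p at 9 of 10 genes, against 60.2% of all S5p regions. Among the 1000 S5p regions nearest in S5p rank, S2p was met by 63% for JUND, 94.2% for ATF3, 96.1% for EGR1 and 99.9% for FOSL2. The members' shares therefore have to be read against strong S5p regions, where 53BP1 and S2p are both common. Neither share is shown to exceed that background.

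Several 53BP1 regions often lay in 1 S5p region. The strongest S5p region held 2 or more at 8 of 10 genes, with a single one at EGR1 and ATF3. It did so at all 8 genes whose S5p region was 5 kb or wider and at all 6 in the strongest 1%. At FOS and JUND this rested on weak regions: every 53BP1 region but the strongest was below a −log10 q-value of 5. Over the S5p list 1.91% of regions held 2 or more, over the strongest 20% it was 9.4%, over the strongest 20% that were also 5 kb or wider 26.1%, and over the strongest 1% of any width 37.3%. A share over regions that were both 5 kb or wider and in the strongest 1% was not computed. The 19 53BP1 regions that were not the strongest of their gene included many weak ones, down to a fold of 2.99 at FOSL1.

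Among them was a 53BP1 region beside the S2p summit. At 7 of 9 genes a 53BP1 summit lay within 500 bp of the strongest S2p summit, and at 6 of these 7 it too was past the 3′ end of the span. The distance was 17 bp at JUN, 122 bp at MYC, 149 bp at JUNB, 161 bp at EGR1, 188 bp at JUND, 261 bp at IER2 and 460 bp at FOSL1. Each was weaker than the strongest 53BP1 region of its gene, with folds from 4.12 at EGR1 to 10.7 at JUNB. At EGR1 and JUND its −log10 q-value was 3.94 and 4.94, and with a limit of 5 the count was 5 genes. At FOSL1 and JUNB, 53BP1 there cannot be ascribed to the gene alone, for the neighbouring genes named above. FOS and FOSL2 had no 53BP1 summit within 500 bp of the S2p summit, and their nearest 53BP1 summits were 4127 and 27422 bp away. The genes with an S2p region at least 5 kb wide had such a 53BP1 summit in 6 of 8 cases, and those in the strongest 1% of the S2p list in 5 of 5. Of all S2p regions 5 kb or wider with 53BP1, 50.8% had a 53BP1 summit within 500 bp of their own summit, and the share was 68.5% in the strongest 1% of S2p regions with 53BP1. The genes' count is thus near the background, and 53BP1 beside an S2p summit is not particular to them.

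At like S5p rank, FOSL2, EGR1, JUND and ATF3 differed in 53BP1 and S2p. Their strongest S5p regions were set beside the 1000 S5p regions nearest in S5p rank. The other 6 genes rank too near the top of the list for equal numbers of neighbours on both sides. They were set beside the other S5p regions of ranks 1 to 1001. Of these 1000, 723 held a 53BP1 region of at least the fold of FOS, 312 of JUN and 261 of FOSL1. The count was 149 for MYC, 109 for IER2 and 79 for JUNB. Of the 1000 neighbours of EGR1, 0 held a 53BP1 region of at least its fold of 20.6, and of those of JUND 1 did, at a fold of 21.9 or more. The median 53BP1 fold where present was 7.12 among the regions near EGR1 and 5.32 among those near JUND. Of the 1000 neighbours of FOSL2, 699 held a 53BP1 region of at least its fold, and of those of ATF3, 84 held one of at least the fold of ATF3. For S2p the order of FOSL2, EGR1, JUND and ATF3 was another. EGR1's S5p region at the start met S2p of fold 3.52, and 906 of 1000 neighbours met S2p of at least that fold. ATF3 met none, while 94.2% of its neighbours did. JUND and FOSL2 were less apart from their neighbours in S2p, of which 388 and 333 of 1000 met S2p of at least the gene's fold. Neighbours were matched on S5p rank by fold and not on width, and the strongest 53BP1 region anywhere in the S5p region was taken. The S5p regions were 34322 bp wide at FOSL2, 8853 bp at JUND, 3795 bp at EGR1 and 1102 bp at ATF3, against a list median of 970 bp. By −log10 q-value the S5p region of EGR1 ranked 1557th rather than 3609th, so its neighbours would differ. These genes were singled out after their values were seen.

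**Figure D4:**
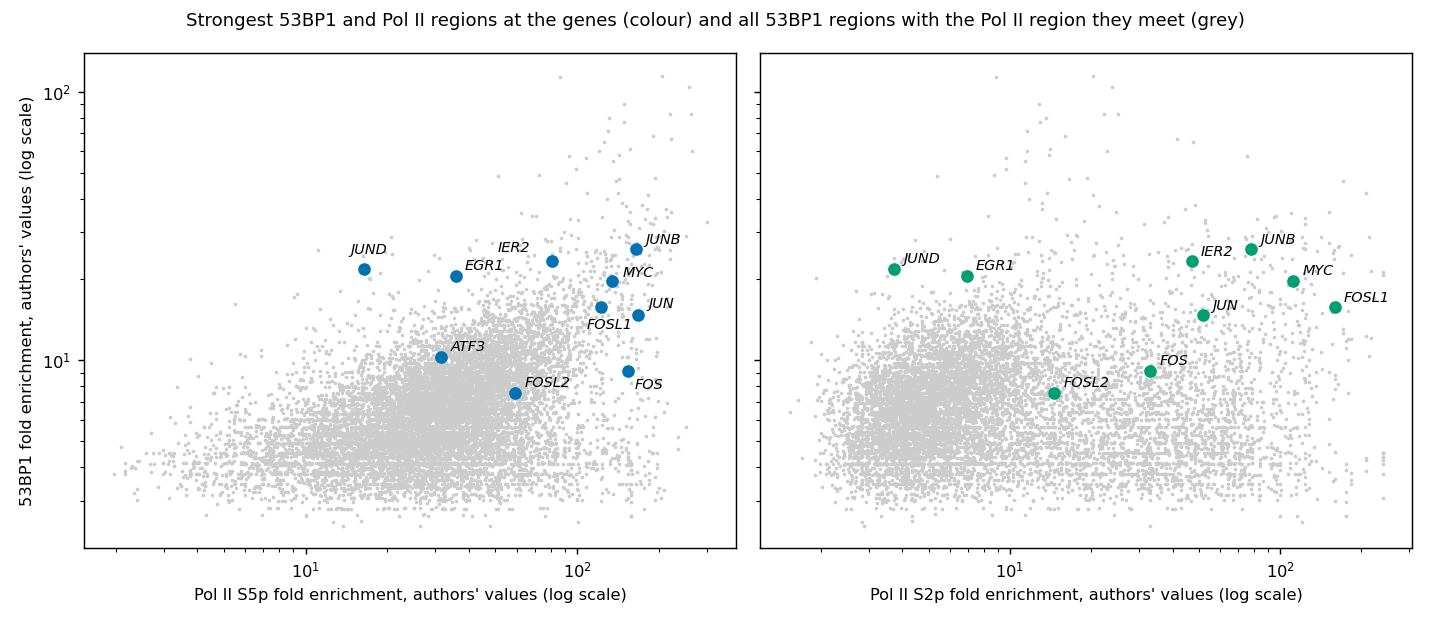
Fold enrichment of the strongest 53BP1 region of each gene (vertical axis) against that of its strongest S5p (left) or S2p region (right), on log scales. Grey points are all 53BP1 regions with a Pol II region they meet; at EGR1 and JUND the strongest S2p region is at the end of the gene and the strongest 53BP1 region at the start. Grey points include weaker 53BP1 regions of an S5p region, while a gene is shown by its strongest. JUND and EGR1 lie above most grey points of their S5p fold, FOS and FOSL2 are the lowest of the genes in 53BP1 fold, and ATF3 has no S2p value.

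By the ranks of the strongest regions in all 3 lists, expressed as percentiles, FOSL1, JUN, JUNB, IER2 and MYC lay close together. Percentiles compress differences at the top of a list. FOSL1 and IER2 had S2p folds of 159 and 47.2 but S2p percentiles of 99.97 and 99.17, so closeness here does not mean like folds. By fold, JUNB and MYC were the closest pair, at a distance of 0.938 percentile points, IER2 was nearest to JUNB (0.956), and FOSL1 and JUN were nearest to each other (1.06). Which gene was nearest depended in part on the value used for ranking, where ranking by −log10 q-value was added after the data were seen. By −log10 q-value JUNB and IER2 were the closest pair (0.370), and JUN was nearest to MYC (1.06). FOSL2 was nearest to FOS in both cases, at 13.1 points by fold and 24.7 by −log10 q-value. JUND was nearest to EGR1 in both cases, at 31.3 points by fold and 11.4 by −log10 q-value. FOS was nearest to FOSL2 by fold, at 13.1 points, but to FOSL1 by −log10 q-value, at 4.51 points, and EGR1 to IER2 by fold (15.4) but to JUN by −log10 q-value (8.56). ATF3 could not be placed without an S2p value.

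The limit of 5 kb decided a few regions. Just inside it, the S2p region of fold 15.1 near IER2 reached 58 bp into the window, and an S2p region of fold 4.99 reached 255 bp into that of JUN. Just outside it lay an S5p region of fold 3.08 at 5671 bp from IER2, an S5p region of fold 4.02 at 5993 bp from FOSL1 and an S5p and a 53BP1 region of fold 11.1 and 4.94 at 6072 and 6252 bp before the start of the ATF3 span. None of these was the strongest of a gene. Weak 53BP1 folds had coarse steps: 3 of the regions, at JUND and IER2, shared a fold of 4.91 and a −log10 q-value with 160 rows of the list in all, and 88.6% of all 53BP1 regions shared their fold with another. Small differences between weak 53BP1 regions thus carry no order.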

How the data were processed

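The members and gene lists were chosen with earlier results of these data known. Lists of enriched regions for 53BP1, Pol II S5p and Pol II S2p in MCF10A cells were used as the authors deposited them, 1 library each. Per the submitters' processing notes the build was hg19 and bcl2fastq (2.20.0.422) made the reads. The sources used here name no aligner, peak caller, caller settings, control or pooling, and read depth is unknown. The fold enrichment is the authors' ratio over background. The deposited −log10 q-value served for alternatives. The deposited −log10 p-value and score were not used; the score is 10 times the −log10 q-value within 1.

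Rows outside chromosomes 1 to 22 and X were dropped (1, 2 and 1). Positions are 1-based. Regions belonged to a gene at 1 bp of overlap with its given span widened by 5 kb. Rank 1 is the highest fold; a percentile is the percent of the list with a lower fold. All 10 given genes are named. Strand came from the RefSeq promoter table (GRCh38.p14), for FOSL1 and MYC from textbook knowledge, and RefSeq also gave neighbouring genes. Other immediate early genes and marker genes were not analysed here, for lack of an hg19 annotation. Overlap and rank functions were tested on simulated data. Alternatives changed the margin, the −log10 q-value limit (5), list length, overlap and ranking. The tools were Python 3.11.15 with scipy 1.17.1, pandas 2.3.3, numpy 2.4.6 and, for figures, matplotlib 3.10.9.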

Additional observations from a re-analysis of the deposited data

How the results depend on the processing

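Of 65 alternatives to the summary values, 60 were labelled as unchanged. A count had to stay within 1.5 times, and the share of S5p regions with 53BP1 within its counting error. Medians were set against the spread between genes, which is wide, so their label tests little. The largest change was in the median percentile of the strongest 53BP1 region, from 97.6 to 98.1 when ranked by −log10 q-value. Median distances and median shares of the span covered did not change. Counts of regions moved with the window and the limit by construction: 53BP1 regions numbered 16 without a margin and 17 with the −log10 q-value limit of 5 (29 as reported), S5p regions 22 with 10 kb on each side (13), and S2p regions 9 with lists of equal length (15). Without a margin 100% of the S5p regions at the genes held 53BP1 (84.6%). Every gene kept a 53BP1 and an S5p region under all 5 alternatives tried for each. S2p was found at 8 of the 10 genes with lists of equal length, or with the summit required inside the window, and at 9 otherwise. The count of S2p summits past the 3′ end was 8 or 9 under 5 alternatives, and that of 53BP1 summits within 500 bp of the S2p summit was 5 to 7 under 3; these were added after the data were seen. Ranking by −log10 q-value moved the 29 percentiles of single genes by -1.21 to 30.3 points (13 lower, 16 higher), the largest rise being that of S2p at JUND; it put IER2 among the strongest 1% for 53BP1 (rank 86) and JUN outside it for S2p (rank 578). The cause was not tested. No paired analysis was possible because there was a single library of each kind. Unknown depth limits every statement that a region was not found.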
